A study of Homo sapiens with 12 samples.

Results

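Interferon-stimulated genes were followed in L540, a Hodgkin lymphoma cell line that carries CD30, after that receptor was engaged with its ligand or with antibodies. The set held 40 genes named for their induction by interferon. Their probes were taken by gene symbol, with old symbols updated through the Entrez identifier (DDX58 to RIGI), and a gene counted as measured where, in any group, both arrays gave 1 of its probes a detection p under 0.01. By that rule 25 of the 40 genes were measured, of 8113 genes measured in all. The 25 genes had 35 such probes, and the brightest probe stood for its gene.

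The tested groups were L540 cells given CD30L-Fc, a fusion of the CD30 ligand CD153 to an Fc part, or 1 of the anti-CD30 monoclonal antibodies T104, PW30, T427 and T408, each at 10 µg/ml. Untreated L540 cells were the control. The series title says that the antibodies bind different epitopes of CD30. Each of the 6 groups had 2 arrays, described in the design text as biological duplicates, and all cells had 16 h of preculture. The design text gives 8 h of treatment and calls the 24 h of the sample labels wrong, while the growth protocol also gives 24 h, so the time is not settled. The design text names an antibody T428 where the labels have T408. L540 is 1 cell line, so the values describe that line only, and nothing in the labels tells whether the untreated cells got the carrier solution.

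Interferons are secreted cytokines that bind receptors coupled to the kinases JAK1, JAK2 and TYK2. These phosphorylate STAT transcription factors, which enter the nucleus, with IRF9 in the case of type I interferon, and bind the interferon-stimulated response element (ISRE) or the gamma-activated site (GAS) of target genes. The products of those genes degrade or edit viral RNA, stop translation, block viral entry and release, or tag proteins with ISG15. CD30 is a TNF receptor superfamily member known for signalling through TRAF adaptors to NF-kB, and several interferon-stimulated genes are also known as targets of NF-kB or of IRF1.

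Promoter windows were available in RefSeq (GRCh38.p14) for 30 of the 40 genes, each with 250 bases before and 50 bases after the transcription start. The ISRE core, spelled GAAANNGAAA and searched on both strands, was in the window of 22 of the 30 genes (73.3%) and of 4.38% of all 27305 genes with a window. The GAS, spelled TTCNNNGAA, was found in 8 of the 30 (26.7%) and in 9.38% of all genes, and the NF-kB consensus in 5 of the 30 (16.7%) and in 7.09% of all genes. The 170 bases before the start are shown for the measured genes that the comparisons below turn on and have a window, and for ISG15, whose signal was not called in any of them. Positions count back from -1 at the base before the start, all 6 genes lie on the plus strand, and capitals mark matches to any of the 3 motifs.
OAS3 (chr12:112938304-112938473): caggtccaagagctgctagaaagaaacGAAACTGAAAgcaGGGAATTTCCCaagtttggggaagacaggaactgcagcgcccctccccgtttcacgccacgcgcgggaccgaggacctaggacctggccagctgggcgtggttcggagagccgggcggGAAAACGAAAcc
ISG20 (chr15:88638846-88639015): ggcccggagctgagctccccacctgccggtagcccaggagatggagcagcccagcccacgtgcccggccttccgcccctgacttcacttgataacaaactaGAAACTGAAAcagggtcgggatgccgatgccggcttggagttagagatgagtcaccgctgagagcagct
PARP14 (chr3:122680669-122680838): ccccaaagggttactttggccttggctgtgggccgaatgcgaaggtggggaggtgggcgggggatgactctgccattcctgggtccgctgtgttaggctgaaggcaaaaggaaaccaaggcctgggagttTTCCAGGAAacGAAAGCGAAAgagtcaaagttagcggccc
IFI44L (chr1:78620278-78620447): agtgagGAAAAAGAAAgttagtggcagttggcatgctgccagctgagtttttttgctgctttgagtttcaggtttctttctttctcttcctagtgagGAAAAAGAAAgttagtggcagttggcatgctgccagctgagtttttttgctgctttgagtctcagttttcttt
IFI44 (chr1:78649619-78649788): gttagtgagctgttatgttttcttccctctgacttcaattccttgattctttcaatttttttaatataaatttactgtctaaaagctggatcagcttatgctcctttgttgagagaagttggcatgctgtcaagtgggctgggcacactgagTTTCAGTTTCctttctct
ISG15 (chr1:1013327-1013496): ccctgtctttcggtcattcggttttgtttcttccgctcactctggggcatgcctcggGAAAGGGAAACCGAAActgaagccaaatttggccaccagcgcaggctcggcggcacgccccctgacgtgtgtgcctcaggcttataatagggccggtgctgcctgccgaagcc
OAS3 had ISRE core matches at -143 to -134 and at -12 to -3, with 2 overlapping NF-kB matches at -130 to -121 and -129 to -120 between them. ISG20 had 1 ISRE core match at -69 to -60. PARP14 had a GAS match at -40 to -32 and an ISRE core match at -29 to -20. IFI44L carried the same 10 letters at -164 to -155 and at -73 to -64. IFI44, for which the first of 2 listed starts is shown, had its match on the minus strand at -18 to -9. The 2 ISRE core matches of ISG15, at -113 to -104 and -107 to -98, overlap each other. A match is a run of letters and was not tested for binding.

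The share of promoters with each motif was also counted by what the genes did on the arrays. The ISRE core was found in 4 of the 4 genes with a window that were called against untreated cells in at least 1 treatment, in 9 of the 14 measured but uncalled genes (64.3%) and in 9 of the 12 unmeasured genes (75.0%). The GAS was in 1 of the 4 called, 5 of the 14 uncalled and 2 of the 12 unmeasured genes, and the NF-kB consensus in 1 of 4, 1 of 14 and 3 of 12. The DTX3L and PARP9 windows share an ISRE core match at the same 10 bases (chr3:122564332-122564341), since these genes start close to each other on opposite strands. IFIT2, OAS2, OASL, USP18, MX2, GBP2, IFITM2, LY6E, TRIM22 and APOL6 had no window.

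The arrays were alike in quality. Median signals before normalization were 129.9 to 151.7, with 10910 to 12005 of the 48780 probes detected, and duplicates correlated at 0.990 to 0.992 over all 48780 probes. Median signals were 144.0 or more in the CD30L-Fc and untreated groups and 136.3 or less in the PW30, T427 and T408 groups, and the part of this in the results was not tested. Principal components 1 and 2 took 44.3% and 11.3% of the variance, and both PW30 arrays stood apart on component 2. Of markers for other cells, 8 of 8 for Hodgkin lymphoma lines were measured, among them TNFRSF8, which encodes CD30, against 1 of 6 for T cells (CD2), 0 of 6 for B cells, 2 of 5 for plasmacytoid dendritic cells (TCF4 and IRF7), 2 of 6 for monocytes and macrophages (CSF1R and CD68) and 1 of 6 for fibroblasts and epithelium (VIM). CLEC4C, LILRA4 and IL3RA, known as markers of plasmacytoid dendritic cells, were not detected on any array. In bulk RNA, fewer expressing cells and less RNA per cell cannot be told apart.

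Part of the interferon-stimulated set was already detected in resting L540 cells, and part was not detected in any group. Of the 40 genes, 22 were detected on both arrays of all 6 groups, 3 in some groups only, and 14 had a probe but were not measured. USP18, which encodes the protease that removes ISG15, had no annotated probe and was not analysed here. Not detected on any array were IFIT1, IFIT3, IFIT5, OASL, HERC6, MX1, MX2, GBP1, IFITM3, RSAD2, IFI27, XAF1 and SAMD9. The set thus lacked a measurable signal from MX1 and IFIT1, which encode antiviral proteins often used to read out an interferon response.

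Levels differ between probes for reasons of probe sequence, so they give no ranking of transcripts and are listed only to show where each probe lies on the log2 scale. In untreated cells the highest normalised log2 signals belonged to ADAR, the editor of double-stranded RNA, at 13.23 ± 0.03 (SD, n = 2), to IFITM1 at 13.21 ± 0.12 and to IFITM2 at 12.75 ± 0.11. The lowest signals detected on both untreated arrays belonged to IFI44 at 7.98 ± 0.04, IFI44L at 7.56 ± 0.03 and DTX3L at 7.26 ± 0.18. The other 17 genes detected on both untreated arrays lay between these values.

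**Figure D1:**
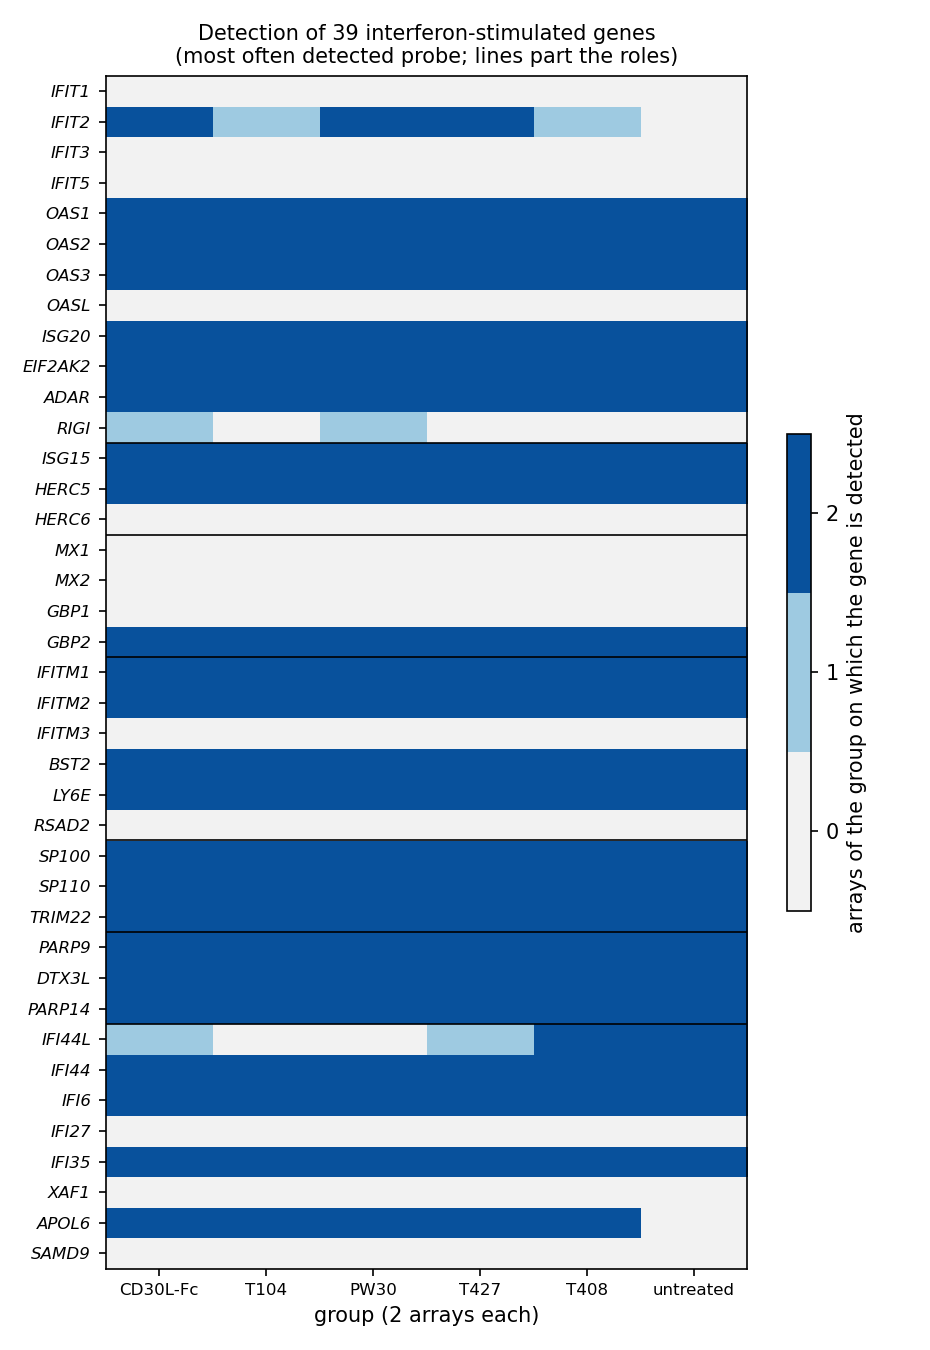
Detection of the 39 interferon-stimulated genes with an annotated probe. Rows are genes grouped by role, columns are the 6 groups, and the colour gives on how many of the 2 arrays of a group the most often detected probe had a detection p below 0.01: 22 genes are at 2 in every group, and APOL6 is at 2 in all 5 treated groups and at 0 in untreated cells.

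3 genes crossed the detection limit between groups. APOL6 was detected on both arrays of all 5 treatments and on no untreated array, and so it passed the detection rule only through the treated groups and had to differ. IFIT2 was detected on both arrays after CD30L-Fc, PW30 and T427, on 1 array after T104 and after T408, and on none of the untreated. It thus passed the rule only through treated groups. IFI44L ran the other way, with both arrays after T408 and both untreated arrays detected, 1 after CD30L-Fc and after T427, and none after T104 and PW30. IFI44L thus passed the rule only through the T408 and untreated groups, where it was highest, and a lower signal in the groups without detection was built into its selection. RIGI, which encodes a cytoplasmic sensor of viral RNA, lay just outside the rule, detected on 1 array after CD30L-Fc and on 1 after PW30.

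Each treatment was then compared with untreated cells to ask which interferon-stimulated genes it moved. OAS3, ISG20 and APOL6 rose and IFI44L fell after CD30L-Fc, T104 and PW30, and PARP14 rose after CD30L-Fc and T104. LY6E fell after T104, and APOL6 also rose after T408. APOL6 and IFI44L passed the detection rule only through groups where they were high, so their calls are given as a description. The remaining 19 of the 25 measured genes passed the test in none of these 5 comparisons. The test was limma's moderated test on all 12 arrays, two-sided, with Benjamini-Hochberg adjustment over 8113 genes and adjusted p-values under 0.05 were called. Adjustment within each comparison asks for a smaller unadjusted p where fewer genes pass, as after T427 and T408. LY6E after T104 was called at an unadjusted limma p of 0.00352, while IFI44L after T427, at 0.00296, was not. A gene not called after T427 or T408 is thus not shown to be unchanged.

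After CD30L-Fc 4 of the 25 genes rose and 1 fell, while 8.33% of all genes were called (5.46% higher, 2.87% lower). After T104 4 rose and 2 fell, with 9.44% of all genes called (5.92% higher, 3.53% lower). After PW30 3 rose and 1 fell, with 11.1% of all genes called (6.27% higher, 4.79% lower). After T408 the 1 gene called was APOL6, which had to differ, so nothing is read from its count beside the 0.271% of all genes called (0.271% higher, 0% lower). After T427 limma called 0 of the 25, with 0.333% of all genes called (0.32% higher, 0.0123% lower), and 6 of the 25 had an unadjusted p below 0.05, as did 7.51% of all genes. The median log2 change of the 25 genes was 0.04 after CD30L-Fc, -0.01 after T104, 0.02 after PW30, 0.06 after T427 and 0.06 after T408, next to medians of -0.04, -0.04, -0.05, -0.01 and -0.02 over all genes. The T104 median was below 0, although 4 of the 6 genes called there were higher. APOL6 and IFI44L, whose detection differed between groups, count among these calls. Over the 22 genes detected on all 12 arrays, refitted among such genes only, 3 rose and 0 fell after CD30L-Fc, 3 rose and 1 fell after T104, 4 rose and 0 fell after PW30, and 0 were called after T427 and after T408. With the genes at the edge of detection set to their bounds the medians were 0.04, -0.01, 0.02, 0.01 and 0.05 in the same order. The 5 comparisons share the untreated arrays, so their calls are not independent.

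**Figure D2:**
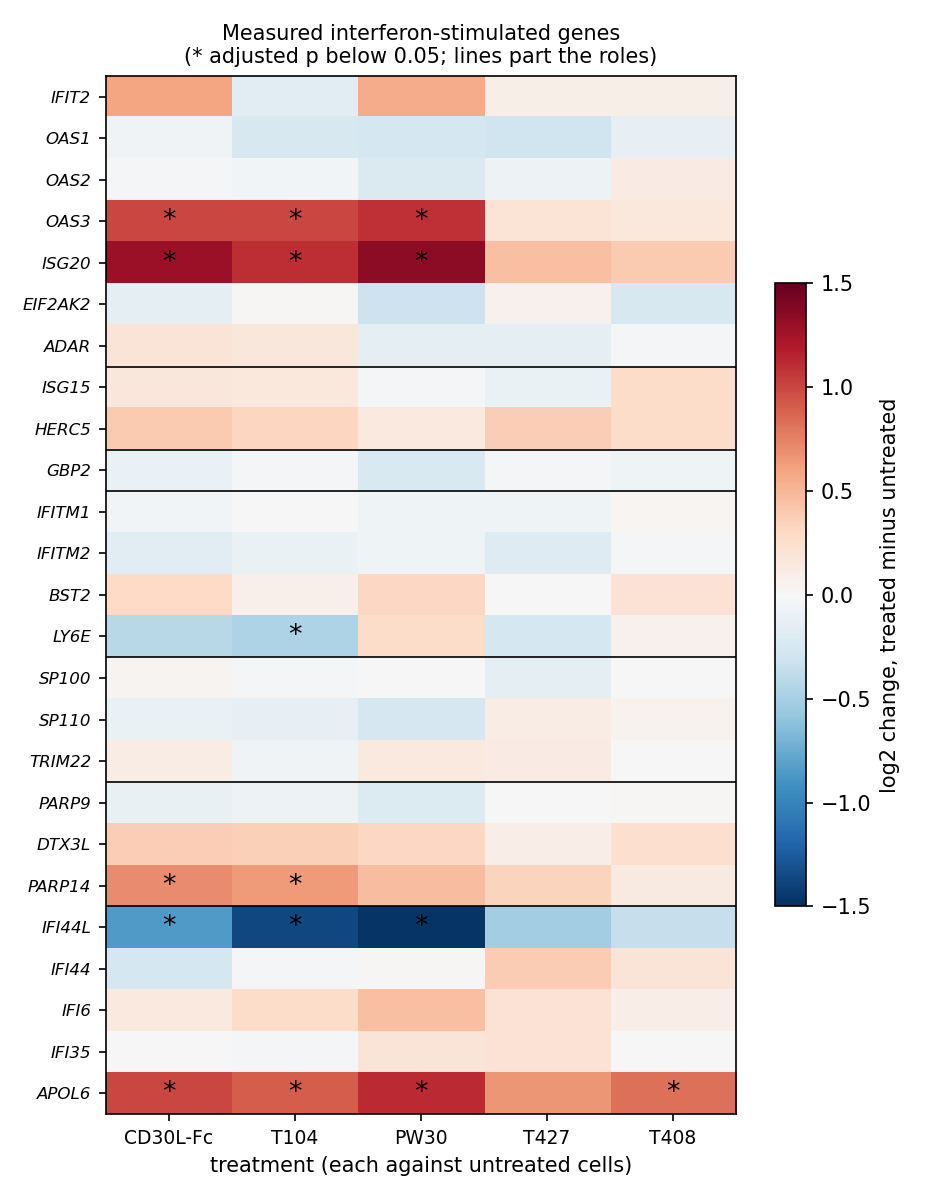
Log2 change of the 25 measured interferon-stimulated genes, treated minus untreated, for each of the 5 treatments (columns). Rows are genes grouped by role, red is higher and blue lower in treated cells, and asterisks mark limma's adjusted p below 0.05: OAS3, ISG20 and APOL6 are red and IFI44L blue with asterisks in the first 3 columns, and most other rows are pale.

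Among the RNA-binding effectors and RNA enzymes, 12 genes were listed, 7 were measured and 2 rose, OAS3 and ISG20. OAS3 makes oligoadenylates that activate RNase L when it meets double-stranded RNA. Its log2 signals were 9.0 and 9.19 after CD30L-Fc, 9.08 and 9.12 after T104, 9.15 and 9.24 after PW30, 8.36 and 8.24 after T427, 8.11 and 8.39 after T408, and 8.13 and 8.06 in untreated cells. All 6 arrays of CD30L-Fc, T104 and PW30 lay above the other 6, and 1 T408 array lay within the untreated range. The log2 change against untreated was 1.0 ± 0.13 (SE, limma adjusted p = 3.03e-04) after CD30L-Fc, 1.01 ± 0.13 (2.92e-04) after T104 and 1.10 ± 0.13 (1.49e-04) after PW30. It was 0.20 ± 0.13 after T427 (adjusted p = 0.789) and 0.16 ± 0.13 after T408 (0.816).

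ISG20 is an exonuclease that degrades single-stranded RNA. On the log2 scale its signals were 13.06 and 12.91 after CD30L-Fc, 12.71 and 12.93 after T104, 12.98 and 13.11 after PW30, 12.18 and 12.14 after T427, 12.18 and 12.02 after T408, and 11.48 and 11.93 in untreated cells. All 10 treated arrays lay above both untreated arrays, with those of CD30L-Fc, T104 and PW30 highest. The log2 change was 1.28 ± 0.15 (limma adjusted p = 2.02e-04) after CD30L-Fc, 1.11 ± 0.15 (5.14e-04) after T104 and 1.34 ± 0.15 (1.36e-04) after PW30. The changes of 0.45 after T427 (adjusted p = 0.516) and 0.39 after T408 (0.521) did not pass.

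The other measured genes of this role were not called. OAS1 and OAS2 encode sister enzymes of OAS3, and their log2 changes over the 5 treatments were -0.30 to -0.06 and -0.22 to 0.12. EIF2AK2, the kinase that stops translation on double-stranded RNA, changed by -0.31 to 0.06, and ADAR by -0.15 to 0.19. IFIT2 binds RNA and had log2 signals of 7.77 and 7.01 after CD30L-Fc and of 7.23 and 7.49 after PW30. Its signals were 6.84 and 6.42 after T104, 6.94 and 6.84 after T427, and 7.31 and 6.48 after T408. In untreated cells, where it was not detected, they were 6.77 and 6.84. IFIT2 was measured only through treated groups, so its values are given as a description. The CD30L-Fc and PW30 arrays lay above the untreated ones, at least 1.36-fold for CD30L-Fc and at least 1.33-fold for PW30. Neither change passed (limma adjusted p = 0.239 and 0.219). OAS3 thus moved while its sister genes OAS1 and OAS2 were not called; whether the genes differ in their change was not tested.

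In the ISG15 pathway ISG15 and HERC5 were measured of 4 genes, and neither was called. ISG15 is a ubiquitin-like tag, and its log2 change was 0.17 after CD30L-Fc, 0.16 after T104, -0.02 after PW30, -0.10 after T427 and 0.28 after T408. HERC5 is the ligase that attaches it, and it changed by 0.39 after CD30L-Fc, 0.32 after T104, 0.15 after PW30, 0.37 after T427 and 0.28 after T408. All 5 values for HERC5 were above 0, the smallest limma adjusted p among them was 0.0741, and they share the same untreated arrays. GBP2, a guanylate-binding GTPase and the 1 of 4 GTPases measured, changed by -0.22 to -0.01.

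Of 6 membrane-associated restriction factors 4 were measured and LY6E alone was called. LY6E is a lipid-anchored surface protein, encoded on chromosome 8. The arrays gave it log2 signals of 8.98 and 9.07 after CD30L-Fc, 9.03 and 8.92 after T104, 9.86 and 9.57 after PW30, 9.12 and 9.24 after T427, 9.48 and 9.52 after T408, and 9.37 and 9.51 in untreated cells. The CD30L-Fc, T104 and T427 arrays lay below both untreated arrays, the PW30 arrays lay above them, and those of T408 reached into the untreated range. The log2 change was -0.47 ± 0.13 after T104 (limma adjusted p = 0.0416), -0.41 ± 0.13 after CD30L-Fc (0.0726), 0.28 ± 0.13 after PW30 (0.199), -0.26 after T427 (0.692) and 0.06 after T408 (0.946). The T104 call was lost without either T104 array or either untreated array, with adjusted p-values of 0.0697 to 0.207. IFITM1 and IFITM2, which hinder the fusion of viruses with cell membranes, changed by -0.07 to 0.03 and -0.20 to -0.02, and BST2, which tethers budding virus, by 0.01 to 0.31.

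All 3 listed genes of nuclear bodies and TRIM proteins were measured, and none was called. SP100, a component of nuclear bodies, changed by -0.15 to 0.04, its relative SP110 by -0.25 to 0.11, and TRIM22, a ubiquitin ligase, by -0.05 to 0.15. Of the PARP9, DTX3L and PARP14 group all 3 were measured and PARP14 rose. PARP14 attaches ADP-ribose to proteins and is known as a partner of STAT6. PARP14 log2 signals were 10.42 and 10.42 after CD30L-Fc, 10.27 and 10.43 after T104, 10.32 and 10.03 after PW30, 10.11 and 9.98 after T427, 9.98 and 9.73 after T408, and 9.63 and 9.80 in untreated cells. Each treatment but T408 had both arrays above the untreated ones.

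The PARP14 log2 change was 0.70 ± 0.14 after CD30L-Fc (limma adjusted p = 0.00714) and 0.64 ± 0.14 after T104 (0.0127). It was 0.46 after PW30 (0.0564), 0.33 after T427 (0.637) and 0.14 after T408 (0.865), and these did not pass. The CD30L-Fc call was lost without untreated replicate 1 (adjusted p = 0.0595) or CD30L-Fc replicate 2 (0.0526), and the T104 call without untreated replicate 1 (0.0841) or T104 replicate 2 (0.105). PARP9, the inactive family member that binds the ligase DTX3L, changed by -0.21 to 0.02, and DTX3L by 0.10 to 0.37. DTX3L was not called.

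Of 8 other interferon-induced genes 5 were measured, and APOL6 and IFI44L were called. APOL6 belongs to the apolipoprotein L family of intracellular proteins. Its log2 signals were 7.51 and 7.76 after CD30L-Fc, 7.50 and 7.57 after T104, 7.72 and 7.79 after PW30, 7.17 and 7.41 after T427, 7.35 and 7.57 after T408, and 6.72 and 6.55 in untreated cells, where it was not detected. Each treated array lay above both untreated arrays. The detection rule let APOL6 in only through the treated groups, so its tests are given as a description. Since the untreated level is only an upper bound, the signal was at least 1.61-fold higher after CD30L-Fc (limma adjusted p = 5.71e-04), 1.5-fold after T104 (0.00118), 1.75-fold after PW30 (2.45e-04) and 1.43-fold after T408 (0.0309). After T427 it was at least 1.27-fold higher and did not pass (0.110). Bounds set the lowest signal of detected probes, or the gene's own signal where higher, as the level of the undetected group. The T408 call was lost without any 1 of the 4 arrays compared (adjusted p = 0.0541 to 0.259).

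IFI44L is a paralogue of IFI44 and lies next to it on chromosome 1. IFI44L log2 signals were 6.68 and 6.74 after CD30L-Fc, 6.19 and 6.22 after T104, 6.27 and 5.92 after PW30, 6.90 and 7.19 after T427, 7.23 and 7.20 after T408, and 7.54 and 7.58 in untreated cells. Both untreated arrays lay above all 10 treated arrays, and the T104 and PW30 arrays were the lowest. Since the detection rule let the gene in only through its high groups, its tests are given as a description. The signal fell to below detection after T104, at least 1.53-fold lower than in untreated cells (limma adjusted p = 4.86e-05), and after PW30, at least 1.89-fold lower (2.70e-05). After CD30L-Fc, with 1 of 2 arrays detected, the log2 change was -0.85 ± 0.14 (0.00187). The log2 changes of -0.52 after T427 (0.265) and -0.34 after T408 (0.541) did not pass.

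IFI44 itself was not called against untreated cells. Its log2 signals were 7.90 and 7.54 after CD30L-Fc, 7.85 and 8.06 after T104, 7.92 and 8.08 after PW30, 8.31 and 8.41 after T427, 8.22 and 8.13 after T408, and 7.96 and 8.01 in untreated cells. The T427 and T408 arrays were above both untreated arrays, and the CD30L-Fc arrays below them. IFI6, known for inhibiting cell death, changed by 0.10 to 0.45 over the 5 treatments, with a limma adjusted p of 0.0606 after PW30. IFI35, a partner of leucine-zipper proteins, changed by -0.01 to 0.21.

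**Figure D3:**
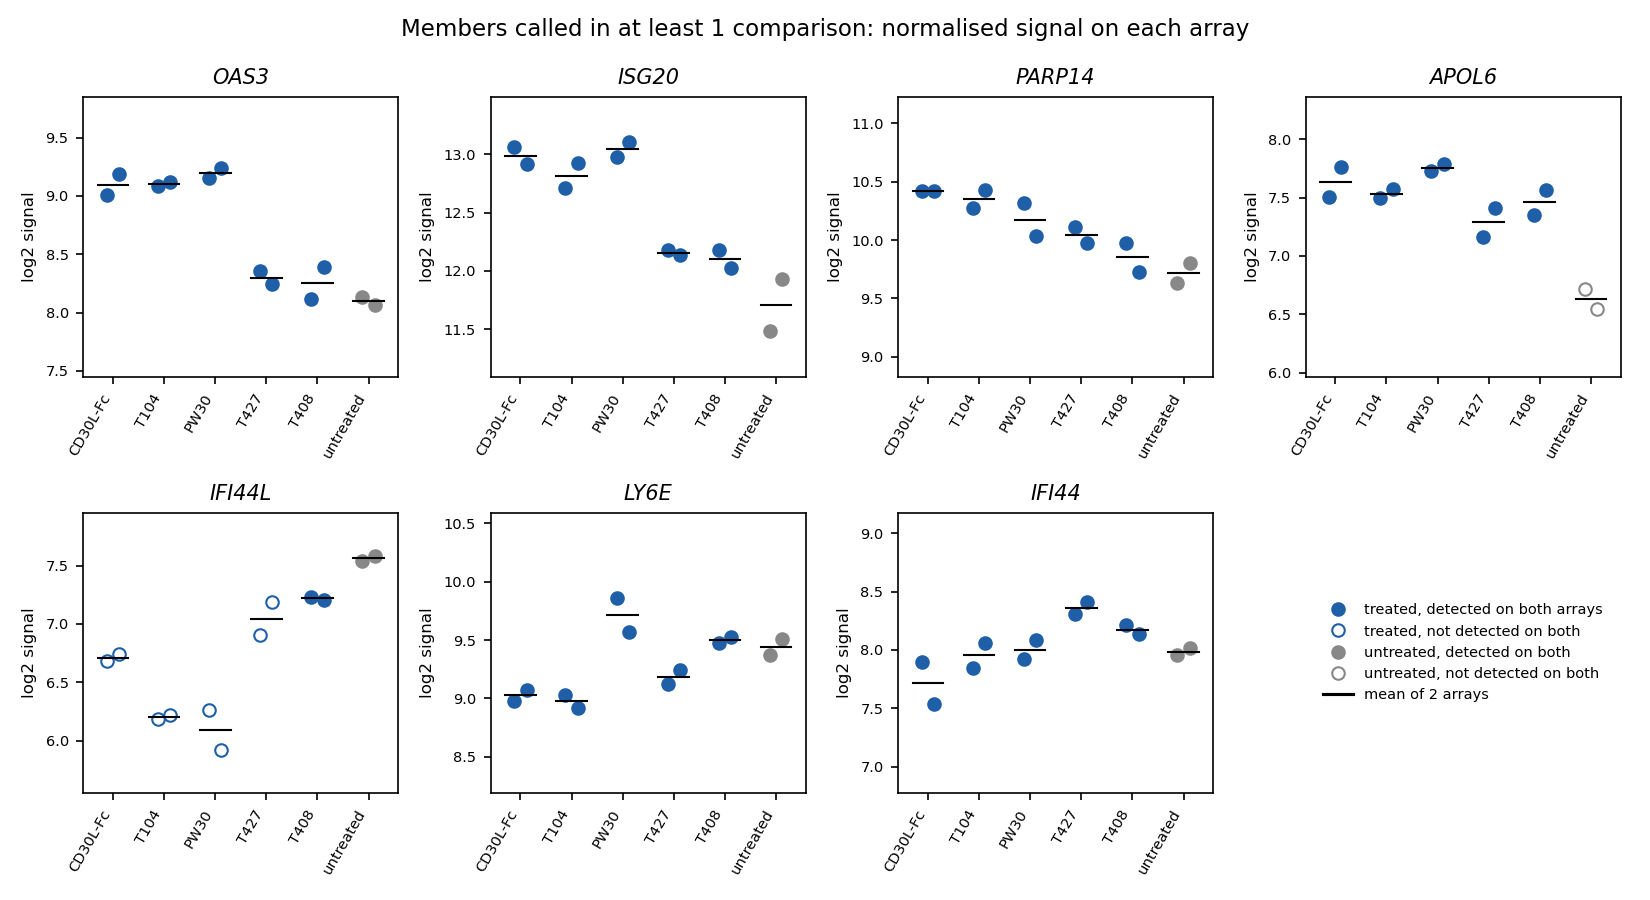
Normalised log2 signal on each array of the 7 interferon-stimulated genes called in at least 1 comparison. Points are single arrays, lines the mean of the 2 arrays of a group, and open points mark groups without detection on both arrays. For OAS3 and ISG20 the CD30L-Fc, T104 and PW30 arrays form the upper level, IFI44L is lowest after T104 and PW30, and the axes differ between genes.

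A test across all groups, on the same arrays and fit, called the same genes. A moderated F test over the 6 groups called 6 of the 25 genes, with 10.2% of all genes called. Those 6 were IFI44L (limma adjusted p = 8.94e-05), OAS3 (1.34e-04), ISG20 (2.96e-04), APOL6 (0.00174), LY6E (0.00991) and PARP14 (0.0243). Counted over the 5 comparisons with untreated cells, the same 6 genes were called in at least 1, as were 15% of all genes. The mean of the 5 treatments differed from untreated cells for 5 genes, with 7.26% of all genes called. OAS3, ISG20, PARP14 and APOL6 were higher in treated cells and IFI44L was lower. All these counts include APOL6 and IFI44L, which passed the detection rule only through groups where they were high. Nothing is read from the counts beside the shares of all genes. For OAS3 and PARP14 the treated arrays reached into the untreated range, and the PARP14 call was lost without untreated replicate 1 (adjusted p = 0.207) or 2 (0.0698).

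Treatments were then compared directly, since a call in one and none in another does not show a difference. There were 10 pairs of treatments, and 6 of the 25 genes differed in at least 1 pair, as did 12.8% of all genes. IFI44L, whose selection built in a lower signal in groups without detection, is among the 6. CD30L-Fc, T104 and PW30 each stood above T427 and T408 in OAS3 and ISG20. T427 minus CD30L-Fc gave a log2 difference of -0.80 for OAS3 (limma adjusted p = 0.00350), -0.83 for ISG20 (0.00772) and 0.64 for IFI44 (0.0205), with 5% of all genes called in that pair. T408 minus CD30L-Fc gave -0.84 for OAS3 (0.00225), -0.89 for ISG20 (0.00516) and -0.57 for PARP14 (0.0351), with 5.32% called.

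Against T104, T427 differed by -0.80 in OAS3 (limma adjusted p = 0.00256) and -0.66 in ISG20 (0.0277), and its IFI44L signal was at least 1.07-fold higher (0.00309), with 5.2% of all genes called. T408 differed from T104 by -0.85 in OAS3 (0.00179), -0.72 in ISG20 (0.0163) and 0.53 in LY6E (0.0325), and IFI44L was at least 1.21-fold higher (8.88e-04), with 5.95% called. IFI44L passed the detection rule only through the T408 and untreated groups. Its pair differences, here and with PW30, are thus given as a description. PW30 minus T427 gave 0.90 for OAS3 (0.00120), 0.89 for ISG20 (0.00422) and 0.53 for LY6E (0.0262), and IFI44L was at least 1.32-fold lower after PW30 (0.00141), with 7.48% called. PW30 minus T408 gave 0.94 for OAS3 (8.43e-04) and 0.94 for ISG20 (0.00301), and IFI44L was at least 1.49-fold lower (4.45e-04), with 6.68% called.

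Within the pair T427 and T408 limma called 0 of the 25 genes and 0% of all genes, and only LY6E had an unadjusted p below 0.05, as did 4.76% of all genes. The T408 minus T427 log2 difference was -0.05 for OAS3 (95% interval -0.33 to 0.23) and -0.06 for ISG20 (-0.39 to 0.28). Among CD30L-Fc, T104 and PW30 the differences were few. T104 against CD30L-Fc had 0 of 25 genes and 0% of all genes called, with IFIT2 and IFI44L at an unadjusted p below 0.05, as for 3.44% of all genes. The T104 minus CD30L-Fc difference was 0.01 for OAS3 (-0.27 to 0.29), -0.17 for ISG20 (-0.51 to 0.16) and -0.07 for PARP14 (-0.37 to 0.24).

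PW30 against CD30L-Fc also had 0 of the 25 called by limma, with 0.16% of all genes called, and 4 genes (ADAR, LY6E, IFI44L and IFI6) at an unadjusted p below 0.05, as for 13.4% of all genes. The brightest ADAR probe was at 13.20 and 12.96 after PW30 and at 13.27 and 13.58 after CD30L-Fc. A dimmer ADAR probe was at 12.23 and 12.16 after PW30 and at 12.19 and 12.08 after CD30L-Fc. LY6E was higher after PW30 than after CD30L-Fc by 0.69 (95% interval 0.41 to 0.97), which did not pass (adjusted p = 0.0671). Against T104, PW30 was higher in LY6E by 0.74 (0.0432), 1 of 25 genes where 0.32% of all genes were called. LY6E is thus the gene in which PW30 parted from T104. That call was lost without any 1 of the 4 arrays compared (adjusted p = 0.0886 to 0.230).

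Other pair calls also turned on single arrays. For ISG20 the difference of T427 from CD30L-Fc was lost without CD30L-Fc replicate 1 or either T427 array (adjusted p = 0.0517 to 0.0751), and that of T408 from CD30L-Fc without CD30L-Fc replicate 1 or T408 replicate 2 (0.0523 and 0.0521). Against T104 the ISG20 call was lost for T427 without any 1 of the 4 arrays (0.0640 to 0.196), and for T408 without T104 replicate 2 or either T408 array (0.0549 to 0.135). The IFI44 call was lost without CD30L-Fc replicate 2 or either T427 array (0.0746 to 0.195), and the PARP14 call between T408 and CD30L-Fc without any 1 of the 4 (0.0586 to 0.225). The LY6E call between T408 and T104 was lost without any 1 of the 4 (0.105 to 0.186), and that between PW30 and T427 without either T427 array or PW30 replicate 1 (0.0713 to 0.173). The OAS3 and IFI44L pair calls held without each array in turn.

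7 of the 25 genes had more than 1 measured probe, and all 35 probes were fitted with the 11949 probes measured in the series. After CD30L-Fc 4 probes were higher and 1 lower, with 7.23% of all probes called, after T104 4 and 1 with 8.01%, after PW30 4 and 3 with 9.78%, after T427 0 and 0 with 0.251%, and after T408 1 and 0 with 0.259%. LY6E after T104 did not pass in this fit. 3 dimmer probes were called after PW30 where the brightest probe of the gene was not. A dimmer IFI6 probe, not detected in untreated cells, had log2 signals of 7.10 and 7.07 after PW30 and of 6.31 and 6.42 in untreated cells, at least 1.10-fold higher (limma adjusted p = 0.0197). That probe was kept only through treated groups, so its rise is given as a description. The 35 probes also include those of APOL6 and IFI44L, so nothing is read from the probe counts beside the shares.

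A dimmer PARP9 probe had log2 signals of 7.25 and 7.41 after PW30 and of 7.85 and 8.06 in untreated cells, a change of -0.62 ± 0.14 (limma adjusted p = 0.0191). The same probe was also lower after PW30 than after T427 (-0.66, 0.0200) and T408 (-0.61, 0.0347). The brightest PARP9 probe changed by -0.21 after PW30 and was not called, and the difference between the probes was not tested. A dimmer SP110 probe had log2 signals of 10.85 and 10.69 after PW30 and of 11.26 and 11.14 in untreated cells, a change of -0.43 ± 0.12 (0.0458).

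RIGI, left out by the detection rule, had log2 signals of 6.85 and 7.35 after CD30L-Fc, 6.75 and 7.05 after T104, 6.53 and 7.09 after PW30, 6.34 and 6.19 after T427, 5.63 and 5.85 after T408, and 5.60 and 5.50 in untreated cells. All treated arrays lay above the untreated ones, and most of these signals were below detection. The CD30L-Fc signal was at least 1.11-fold higher than in untreated cells. Fitted with all 18846 annotated genes and no detection filter, RIGI passed after CD30L-Fc (limma adjusted p = 0.00170), T104 (0.00386) and PW30 (0.00665), and IFIT3 after PW30 (0.0437). IFIT3 was not detected on any array, nor RIGI on any T104 or untreated array, so these calls rest on signals below detection. That fit called 467, 500 and 546 of the 18846 genes after CD30L-Fc, T104 and PW30. No other of the 14 unmeasured genes passed in that fit.

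Genes upstream of the interferon-stimulated set were read from lists by role. Of 21 interferon ligands, only the probe of IFNA8 was measured, and it was not called in any of the 5 treatments. Of 6 receptor genes 5 were measured. IFNGR2, a chain of the interferon gamma receptor, was higher after CD30L-Fc by 0.92 ± 0.12 (limma adjusted p = 2.99e-04), after T104 by 0.83 (5.62e-04) and after PW30 by 0.92 (2.92e-04). IFNAR1, a chain of the type I receptor, was higher after T104 by 0.47 (0.0459) and was not called after the other treatments.

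Of 12 kinases, STATs and IRFs 9 were measured, 4 were higher after CD30L-Fc and after T104 and 2 after PW30, and none was lower. The 9 were JAK1, JAK2, TYK2, IRF1, IRF2, IRF3, IRF5, IRF7 and IRF9, so no STAT of this list was measured. STAT3, measured on the further list below, was not called against untreated cells. Of all genes 5.46%, 5.92% and 6.27% were higher and 2.87%, 3.53% and 4.79% lower after CD30L-Fc, T104 and PW30. IRF1, a transcription factor that binds ISRE-like sites, had log2 signals of 11.33 and 11.03 after CD30L-Fc, 11.25 and 11.26 after T104, 11.25 and 11.27 after PW30, 10.24 and 10.22 after T427, 10.54 and 10.22 after T408, and 9.85 and 9.91 in untreated cells. All treated arrays lay above the untreated ones, and its log2 change was 1.30 ± 0.14 after CD30L-Fc, 1.37 after T104 and 1.38 after PW30 (limma adjusted p = 7.55e-05, 4.17e-05 and 3.90e-05). TYK2 changed likewise, by 0.97, 0.99 and 1.03. JAK1 rose by 0.77 after CD30L-Fc and 0.72 after T104, and IRF5 by 0.75 and 0.71. IRF9, the DNA-binding partner of the STATs, changed by -0.12 to 0.02 and was not called.

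Of 15 sensors and adaptors 11 were measured, and 2 were higher after CD30L-Fc, T104 and PW30, where 5.46%, 5.92% and 6.27% of all genes were higher. IFIH1, the sensor of long double-stranded RNA, had log2 signals of 10.55 and 10.61 after CD30L-Fc, 10.55 and 10.62 after T104, 10.64 and 10.65 after PW30, 9.40 and 9.21 after T427, 9.58 and 9.41 after T408, and 8.96 and 8.50 in untreated cells. The 6 arrays of CD30L-Fc, T104 and PW30 lay above all others, and its log2 change was 1.86 ± 0.15, 1.86 and 1.92 in that order. After T408 the change of 0.77 did not pass (limma adjusted p = 0.0630). IKBKE, a kinase that activates IRF3, rose in the same 3 treatments by 0.90, 1.17 and 1.24, with 1 of 2 untreated arrays detected. It thus did not pass the detection rule through untreated cells, and its rise is given as a description. MAVS, the adaptor of RIGI and IFIH1, was at least 1.08-fold lower after T104 (limma adjusted p = 0.0414). It was not detected after T104, so this is given as a description, and its F test over the 6 groups did not pass (adjusted p = 0.114). Of 7 feedback inhibitors, among them SOCS1 and SOCS3, 6 were measured and limma called none in the 5 comparisons, with log2 changes of -0.33 to 0.46.

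A list of 60 further interferon-stimulated genes, none of them in the set of 40, had 39 measured. After CD30L-Fc 10 rose and 2 fell, after T104 9 rose and 4 fell, after PW30 9 rose and 2 fell, and none was called after T427 or T408. The shares of all genes called were 8.33%, 9.44%, 11.1%, 0.333% and 0.271% after CD30L-Fc, T104, PW30, T427 and T408. The median log2 change of the 39 genes was 0.12, 0.10, 0.05, -0.04 and 0.00 in that order, next to -0.04, -0.04, -0.05, -0.01 and -0.02 over all genes. CXCL10, a chemokine for activated T cells, had log2 signals of 7.45 and 7.65 after CD30L-Fc, 7.87 and 8.23 after T104, 7.72 and 8.09 after PW30, 5.12 and 5.11 after T427, 5.19 and 5.28 after T408, and 5.59 and 5.21 in untreated cells. It was detected on both arrays of the first 3 and on none of the others, and so it was measured only through the groups where it was high and had to differ. CXCL10 is counted among the genes that rose in those 3 treatments. As a description, it was at least 1.52-fold, 2.15-fold and 1.94-fold higher after CD30L-Fc, T104 and PW30 than in untreated cells. The called genes GBP4 and RTP4 were also not detected on every array. GBP4 lay at 6.25 on untreated array 1, below the lowest detected signal of that array at 6.90. RTP4 lay at 6.17 and 6.39 on the CD30L-Fc arrays, below their lowest detected signals of 6.95 and 6.68. The counts of this list include both genes.

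In the same 3 treatments and order, EPSTI1 rose by 1.71, 1.67 and 1.74 on the log2 scale, and TNFSF10, the death ligand TRAIL, by 1.16, 1.40 and 1.30. SAMD9L rose by 1.15, 1.05 and 1.07, and PARP12 by 0.91, 0.53 and 0.69. HELZ2 rose by 0.94 after CD30L-Fc and 0.78 after T104, and its change of 0.39 after PW30 did not pass (limma adjusted p = 0.104). SHISA5 fell by 0.81, 0.83 and 0.68, and RNF213 fell by 0.47 after T104 and 0.66 after PW30. Over the 6 upstream and further lists, 25 of 71 measured genes were called in at least 1 of the 5 comparisons, as were 15% of all genes. That count includes CXCL10, and the lists were chosen with earlier results of these data known. Nothing is thus read from it beside that share.

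**Figure D4:**
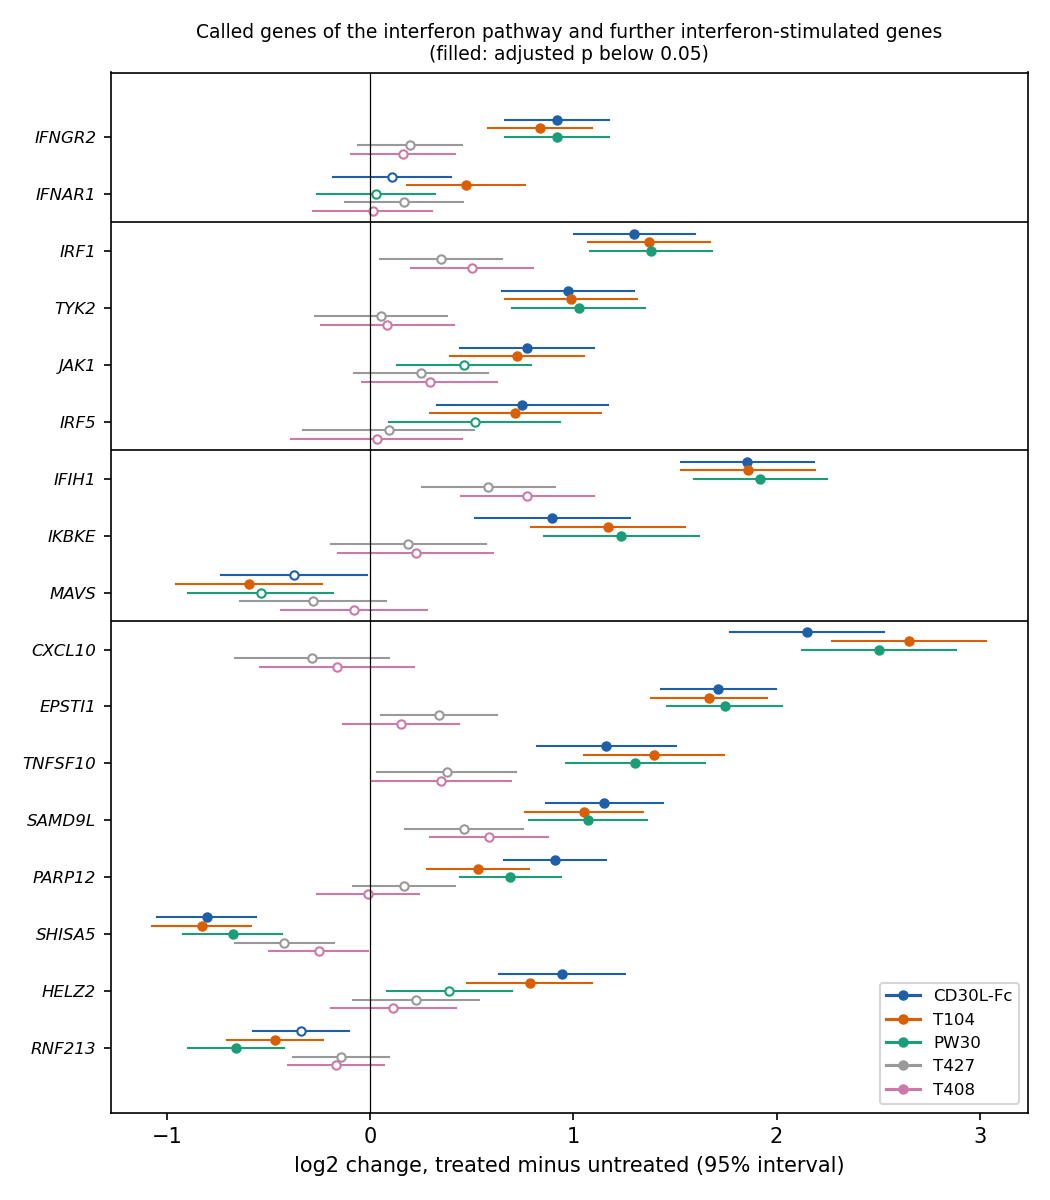
Log2 change, treated minus untreated, of called genes of the receptor, kinase and IRF, sensor and further interferon-stimulated lists (panels from top to bottom). Points are limma estimates with 95% intervals, colours are treatments, and filled points have an adjusted p below 0.05: for IRF1, TYK2, IFIH1, CXCL10 and EPSTI1 the CD30L-Fc, T104 and PW30 points are filled and lie to the right of the open T427 and T408 points. CXCL10 was not detected in untreated cells, so its points are fitted values, not bounds.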

How the data were processed

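L540 cells of 6 groups, 2 each, were measured on 12 Illumina HumanHT-12 v3 BeadChip arrays. Per the file headers, the authors' deposited table before normalization holds a linear signal intensity for each of 48780 probes and a detection p-value per array. Scans were processed with GenomeStudio, per the submitters' processing notes, while the design text names BeadStudio. The authors' processed table, also deposited as linear intensity, served as an alternative, and no header or label states its scaling.

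From the signals before normalization, normexp background correction using the detection p-values, an offset of 16, quantile normalization and log2 were applied, following the neqc function of limma (version 3.58.1, under R 4.3.3). Gene names came from the probe annotation. Of 48780 probes 28082 had 1 gene, 13 several and 20685 none, and 28043 symbols were updated through the Entrez identifier. The detection rule (p under 0.01 on both arrays of any 1 group) left 11949 probes, and taking the brightest for each gene left 8113 genes. Group means over 12 arrays were fitted with lmFit and eBayes, with Benjamini-Hochberg adjustment within each comparison and a call below 0.05. With 2 arrays against 2, the smallest exact permutation p is 0.333. The number of arrays limits the precision. On simulated data with the T104 comparison and 8113 genes, 30% of log2 changes of 0.5 and 96.2% of changes of 1 were called. Of the 146 calls in that simulation 5 were false.

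Members and lists were chosen with earlier results of these data known. Values on every array are given for members called against untreated cells or between treatments, and of the context lists at most 8 called genes each by smallest p are named. IRF9, GBP2 and the other uncalled genes are named to account for their lists, and the dimmer probes, RIGI, IFIT2 and the array values of IRF1, IFIH1 and CXCL10 were chosen after their values were seen. Nothing in the labels says that a replicate number marks a shared day or batch, so the samples were treated as unpaired. Over 15 pairs of groups, the correlation of deviations was -0.08 to 0.107, and 1 was above 0.1. A batch shared by only some genes was not tested. Alternatives changed the background correction, offset, normalization, table, filter, probe choice, variance prior, adjustment, arrays fitted and replicate block, and left out single arrays. A fit without both PW30 arrays was added after seeing the data. Promoter windows came from RefSeq.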

Additional observations from a re-analysis of the deposited data

How the results depend on the processing

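The counts of interferon-stimulated genes called against untreated cells were mostly stable. For CD30L-Fc the count of 5 became 3 where detection on all 12 arrays was required, a rule that removes APOL6, IFI44L and IFIT2, and was 4 to 6 when 1 array was left out. For T104 (6) it was 4 to 5 and for PW30 (4) 4 to 5 with 1 array left out. For T427 the count of 0 became 1 (APOL6) with adjustment over all 15 comparisons and was 0 to 0 with 1 array left out. For T408 the count of 1 (APOL6) became 0 without background correction, with the authors' processed table, without a filter, with detection on all 12 arrays, with a variance trend, with only 4 arrays, without both PW30 arrays (0), and was 0 to 0 with 1 array left out. The cause was not tested where the rule itself does not show it. For the mean of the 5 treatments the count of 5 became 3 with detection on all 12 arrays, and was 4 to 5 with 1 array left out. The 8 probes called against untreated cells were 5 to 7 with 1 array left out, with 5 without untreated replicate 1. The 6 genes called between treatments were 4 to 6, those of the F test 5 to 6, and the 25 upstream and further genes 18 to 24. Of 42 results for single genes 28 kept their call under every alternative run, 14 lost it in at least 1 and 0 changed sign. The 42 include results for APOL6 and IFI44L, whose differences follow from the detection rule. Detection on all 12 arrays removes both genes, so that alternative could not count against them. Nothing is thus read from this tally.

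The replicate number, which no label describes as a pairing, was also fitted as a block. The counts were then 5 for CD30L-Fc, 5 for T104, 4 for PW30, 0 for T427 and 1 for T408. They were 6 between treatments, 5 for the mean, 6 for the F test, 7 probes and 25 upstream and further genes. The block ended the LY6E calls for T104 against untreated (-0.47, limma adjusted p = 0.0577) and PW30 against T104 (0.74, 0.0688) and changed no other call of a named member. Median scaling in place of quantile normalization gave a median change of all genes of -0.13 for PW30 and -0.09 for T104, where quantile normalization gave -0.05 and -0.04, and ended the calls of LY6E between PW30 and T104 or T427 and of PARP14 between T408 and CD30L-Fc. A slide block was not run, since the headers name no slide. Fitting all annotated probes with no filter ended the LY6E calls, the PARP14 calls for T408 against CD30L-Fc and for the mean of 5 treatments, the IFI44 call, the APOL6 call for T408 and the ISG20 calls of T427 and T408 against T104. In the simulated T104 comparison, with 2 arrays a group, 30% of log2 changes of 0.5 were called. The simulation was not run for the other treatments, and T427 and T408 had far fewer genes called.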
